A study of Homo sapiens with 6 samples.

Results

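Collagen is modified by 3 families of oxygen-dependent enzymes, and 10 genes that encode them were followed in SK-OV3 cells after knockdown of the lncRNA PVT1. They were taken by gene symbol from the count table, and all 10 were found among its 59653 genes. SK-OV3 is an established human ovarian cancer cell line with a wild-type label for genotype. Cells were transfected for 48 h with a pool of siRNAs against PVT1 (siPVT1) or with a non-targeting control pool (siControl), and mRNA was sequenced in 3 libraries of each group. The cells of both groups received transfection reagent and siRNA, and no untransfected cells were analysed. As 1 siRNA pool was used against PVT1, other effects of that pool and those of lowering PVT1 cannot be told apart. The labels do not say whether replicates came from separate cultures, so p-values measure the spread between these libraries only.

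Prolyl 4-hydroxylases add hydroxyl groups to prolines of newly made collagen chains in the endoplasmic reticulum, which makes the collagen triple helix stable at body temperature. The enzyme pairs catalytic alpha subunits (P4HA1, P4HA2 or P4HA3) with the beta subunit P4HB, a protein disulfide isomerase. Lysyl hydroxylases (PLOD1, PLOD2 and PLOD3) hydroxylate lysines, on which sugars and cross-links are later placed, and PLOD2 acts on lysines of the collagen telopeptides. Both families need oxygen, iron, 2-oxoglutarate and ascorbate. Lysyl oxidases (LOX and the LOX-like enzymes LOXL2, LOXL3 and LOXL4) are secreted copper enzymes that oxidise lysines in collagen and elastin, the first step of covalent cross-linking of the matrix. Several of these genes, among them P4HA1, P4HA2, PLOD2 and LOX, are known targets of hypoxia-inducible factors in other cells.

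Because hypoxia-inducible factors bind the core letters ACGTG or GCGTG, the start regions of the genes were searched for them on both strands. RefSeq start regions (GRCh38.p14, 250 bases before to 50 bases after a start) were used. Entries of 8 of the 10 genes were searched, with 11 entries in all. P4HA3 had no entry, and LOXL2, which rose, was left out of the search. The shares of the enzymes below therefore do not cover LOXL2, and they stand beside all start regions in the table. Either form was found in 7 of the 11 entries (63.6%) and in 48.4% of the 35116 start regions in the table, and ACGTG was found in 5 of the 11 (45.5%) and in 21.4% of all. LOX has 3 of these entries, all with ACGTG, and 2 of them overlap, so that the same matches are counted again. By gene, either form was found in 5 of the 8, and ACGTG in P4HA1, PLOD2 and LOX only. The shares over all start regions were counted by entry and have no such value by gene. Start regions of 4 genes are shown, 1 gene of each family that rose and PLOD3 as one that fell. They do not stand for the genes not shown. Of those, P4HA2 and LOXL4 also rose and held no match, and PLOD1 rose and held GCGTG. LOXL3 also fell, and 1 of its 2 entries held GCGTG. Each is written 5′ to 3′ on the strand of the gene, and capitals mark ACGTG or GCGTG in either orientation. They lie on the minus strand at chr10:73096817-73097116 (P4HA1), chr3:146161135-146161434 (PLOD2), chr5:122078210-122078509 (LOX, the first of 3 entries) and chr7:101217532-101217831 (PLOD3).
P4HA1: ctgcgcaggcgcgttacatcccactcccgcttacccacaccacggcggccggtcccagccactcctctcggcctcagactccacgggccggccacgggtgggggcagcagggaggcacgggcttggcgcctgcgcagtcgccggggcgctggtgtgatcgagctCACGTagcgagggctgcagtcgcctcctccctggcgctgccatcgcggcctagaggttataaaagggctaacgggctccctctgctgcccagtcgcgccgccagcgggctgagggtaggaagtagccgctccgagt
PLOD2: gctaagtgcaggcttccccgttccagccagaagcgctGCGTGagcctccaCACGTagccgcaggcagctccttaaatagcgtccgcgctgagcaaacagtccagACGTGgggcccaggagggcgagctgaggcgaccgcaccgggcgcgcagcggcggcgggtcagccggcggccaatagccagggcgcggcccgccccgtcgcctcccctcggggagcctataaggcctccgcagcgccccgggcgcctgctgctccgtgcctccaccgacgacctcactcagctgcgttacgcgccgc
LOX: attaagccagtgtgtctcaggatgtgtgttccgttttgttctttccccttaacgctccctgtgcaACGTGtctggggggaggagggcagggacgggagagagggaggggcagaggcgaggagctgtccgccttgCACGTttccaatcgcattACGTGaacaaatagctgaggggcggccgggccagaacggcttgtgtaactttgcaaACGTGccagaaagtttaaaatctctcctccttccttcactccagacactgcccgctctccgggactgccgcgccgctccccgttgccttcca
PLOD3: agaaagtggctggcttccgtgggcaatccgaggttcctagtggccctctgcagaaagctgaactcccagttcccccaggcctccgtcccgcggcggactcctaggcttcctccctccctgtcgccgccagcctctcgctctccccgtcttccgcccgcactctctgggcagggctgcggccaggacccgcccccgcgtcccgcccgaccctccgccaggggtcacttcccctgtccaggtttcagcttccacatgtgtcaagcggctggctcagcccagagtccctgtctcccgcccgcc
The first LOX window held 4 matches to ACGTG, PLOD2 held 2 and a match to GCGTG, and P4HA1 held 1 match, 86 bases before the start. PLOD1 held 2 matches to GCGTG, and the second of 2 LOXL3 entries held 1. No match stood in the windows of PLOD3, P4HA2 and LOXL4. A match in these letters is a description of the sequence, and binding was not measured.

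Libraries held between 28383171 and 35059576 counts. PVT1, the targeted RNA, was lower in siPVT1, with 3289, 4080 and 3368 normalized counts in siControl and 2344, 2105 and 2057 in siPVT1 (replicates 1, 2 and 3 here and below). Its log2 fold change was −0.72 (standard error 0.097, edgeR adjusted p = 0.000342). Normalized counts are counts scaled by TMM, which corrects for depth and composition, and 19008 genes were tested by quasi-likelihood in edgeR, with Benjamini-Hochberg adjustment over all of them. A gene was called where the adjusted p was under 0.05 and the absolute log2 fold change was at least 1. Of 13 epithelial and ovarian carcinoma markers, all were detected in both groups, and their summed level was 27310 to 30596 in siControl and 33725 to 37466 in siPVT1. The sum joins markers that moved in opposite directions. By the adjusted p alone, 7 of the 13 were higher and 3 lower (29.5% and 28.4% of all genes). CDH1 had 35, 22 and 28 raw counts in siControl and 12, 43 and 0 in siPVT1. The summed level of 11 fibroblast, leukocyte and endothelial markers was 3295 to 3361 in siControl and 9707 to 12411 in siPVT1. The fibroblast genes DCN and THY1, the pan-leukocyte gene PTPRC and the monocyte gene CD14 had at most 10 raw counts in every library, and the rise of the sum came mainly from CDH5, an endothelial cadherin (1993 against 9290 in the group means). The mesenchymal receptor genes PDGFRB (85.7 against 301 normalized counts on average) and PDGFRA (7, 9 and 0 raw counts in siControl, 31, 23 and 10 in siPVT1) were also called as higher. FAP (330 against 335) and ACTA2 (856 against 745) were expressed and did not pass the test (edgeR adjusted p = 0.907 and 0.290). Of the 8 genes of this list that were tested, 4 were called as higher and 1, CD14, as lower, and of the 13 epithelial and ovarian markers 3 were called as higher and 1 as lower (11.8% and 9.64% of all genes). LUM, a fibroblast proteoglycan gene, had 15.9 and 7.21 (edgeR adjusted p = 0.132). In bulk RNA, more cells of a type and more RNA per cell cannot be told apart. The part of these markers in the results was not tested.

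All 10 enzymes passed the filter on low counts. In siPVT1, 6 of the 10 (P4HA1, P4HA2, PLOD2, LOX, LOXL2 and LOXL4) were called as higher, against 11.8% of all genes tested, and 0 were called as lower, against 9.64%. Of all genes called, 55.1% were higher, or 43.8% when libraries were scaled by total counts, under which the same 6 enzymes were called. By the adjusted p alone, PLOD1 was also higher, which made 7 of 10 against 29.5% of all genes. PLOD3 and LOXL3 were lower by the adjusted p alone, 2 of 10 against 28.4% of all genes. P4HA3 passed neither threshold. The median log2 fold change of the 10 was 1.30, beside 0.001 over all genes tested. Every siPVT1 library lay above every siControl library for 7 of the enzymes (33.2% of all genes) and below for the other 3 (32.3% of all genes).

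**Figure D1:**
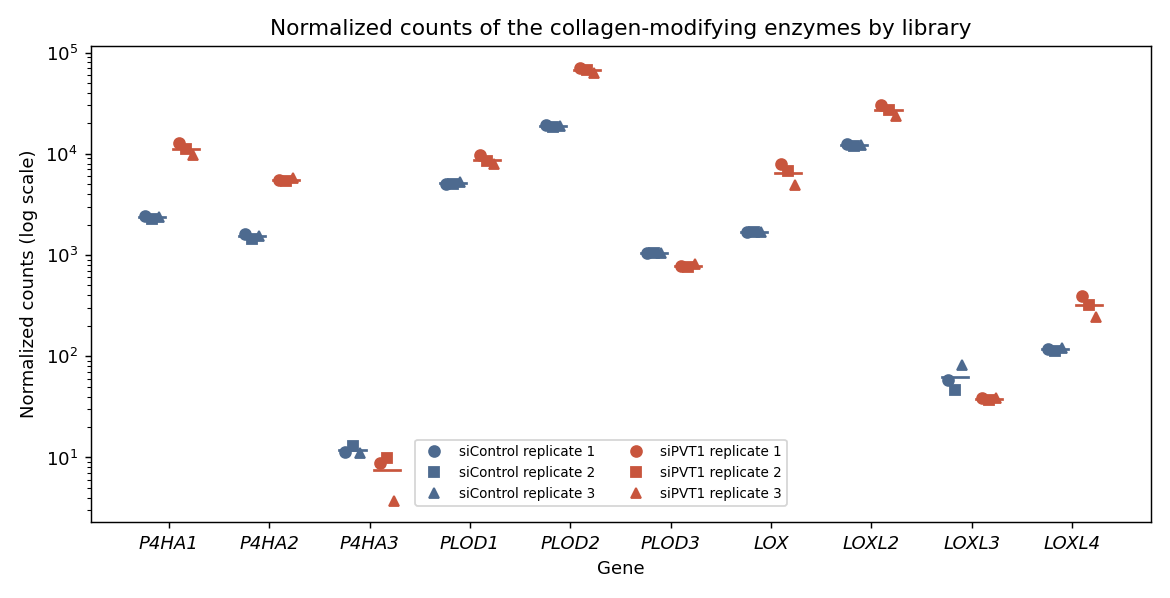
Normalized counts (y axis, log scale) of each enzyme (x axis) in 3 siControl (blue) and 3 siPVT1 (red) libraries; marker shapes give replicate numbers and horizontal lines the group means. P4HA1, P4HA2, PLOD1, PLOD2, LOX, LOXL2 and LOXL4 are higher in every siPVT1 library, while PLOD3, LOXL3 and P4HA3 are lower, the last 2 from few counts.

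P4HA1, the main catalytic alpha subunit of prolyl 4-hydroxylase in most cells, rose most among the enzymes. Its normalized counts were 2425, 2291 and 2367 in siControl and 12666, 11269 and 9832 in siPVT1. The means were 2361 ± 67.0 and 11256 ± 1417 (SD, n = 3 each), a 4.77-fold difference, or 2.25 as log2 fold change (standard error 0.095, edgeR adjusted p = 1.45e-06). Of all genes tested, 2.53% had a larger log2 fold change. The gene lies on the minus strand of chromosome 10 (73007217 to 73096974 in GRCh38).

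P4HA2, an alpha subunit of the same enzyme, rose less than P4HA1 and with less spread among siPVT1 libraries. It had 1596, 1434 and 1547 normalized counts in siControl and 5505, 5343 and 5748 in siPVT1. The log2 fold change was 1.86 (standard error 0.066, edgeR adjusted p = 7.69e-07), a 3.63-fold difference. P4HA2 was the 1 enzyme of the 7 that were higher whose siPVT1 replicate 3 was not the lowest of its group. PDLIM4, which runs through part of the P4HA2 locus on the opposite strand without sharing exons, was also higher (log2 fold change 1.24, standard error 0.10, edgeR adjusted p = 2.83e-05).

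P4HA3, the third alpha subunit, was close to the limit of detection. Its raw counts were 12, 13 and 12 in siControl and 8, 9 and 4 in siPVT1. The log2 fold change was −0.68 (standard error 0.40, edgeR adjusted p = 0.186), so that a difference was not detectable at this depth, and it was −0.35 without siPVT1 replicate 3. An exon of P4HA3 overlaps one of PPME1 on the opposite strand, and PPME1 had 1455 to 1797 normalized counts, so that the value of P4HA3 is uncertain. The strand setting of the counting is not given in the sources used here.

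Within the alpha subunits, P4HA1 gained on P4HA2. The log2 ratio of P4HA1 to P4HA2 within a library was 0.60, 0.68 and 0.61 in siControl and 1.20, 1.08 and 0.77 in siPVT1. The means differed by 0.39, a ratio 1.31 times as high (exact two-sided permutation test, p = 0.1, the smallest that 3 libraries against 3 allow). Apart from the 1 count added to each gene, which matters for genes with few counts, such ratios do not depend on how libraries are scaled to each other. Per kilobase of annotated exons, P4HA1 made 83.3% ± 0.34 of the alpha subunit RNA in siControl and 86.8% ± 1.76 in siPVT1 (SD, n = 3 each), and P4HA2 made 16.4% ± 0.38 and 13.2% ± 1.78. With the canonical transcript as the length, the P4HA1 share was 71.7% and 76.9%, so its size depends on the length taken.

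The beta subunit P4HB rose, by less than P4HA1 and P4HA2. It had 15040 normalized counts on average in siControl and 24031 in siPVT1, which gave 0.68 as its log2 fold change (standard error 0.056, edgeR adjusted p = 2.66e-05). The length-scaled sum of the alpha subunits over P4HB was 0.680, 0.683 and 0.674 in siControl and 2.16, 1.98 and 1.69 in siPVT1. These ratios were 2.86 times as high in siPVT1 on average (exact two-sided permutation test, p = 0.1, the smallest possible), and 2.78 times with canonical lengths. The level of the ratio is uncertain, since with canonical lengths it was 0.195 in siControl and 0.541 in siPVT1.

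PLOD2, the telopeptide lysyl hydroxylase, was among the most abundant RNAs of these cells, and only 0.884% of the genes tested had a higher mean count in siControl. It had 19187, 18290 and 18954 normalized counts in siControl and 71027, 67564 and 62710 in siPVT1. The groups did not overlap, and the 3.57-fold difference gave a log2 fold change of 1.83 (standard error 0.065, edgeR adjusted p = 7.69e-07). The gene lies on the minus strand of chromosome 3 (146035139 to 146163725 in GRCh38). LNCSRLR, a lncRNA gene on the same strand inside its locus, had 12.3 to 21.2 normalized counts in siControl and 28.1 to 73.3 in siPVT1.

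PLOD1, which hydroxylates lysines of the collagen helix, rose by less than the fold threshold. The normalized counts were 5084, 4996 and 5261 in siControl and 9704, 8501 and 7841 in siPVT1. Its log2 fold change was 0.76 (standard error 0.082, edgeR adjusted p = 0.000105), a 1.70-fold difference.

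PLOD3, which also carries glycosyltransferase activity and adds glucose to the galactose on hydroxylysine, fell. It had 1050, 1054 and 1055 normalized counts in siControl, the smallest SD relative to the mean of the 10 enzymes, and 783, 765 and 806 in siPVT1. The log2 fold change was −0.42 (standard error 0.063, edgeR adjusted p = 0.000597). ZNHIT1 shares exonic sequence with PLOD3 on the opposite strand and did not pass the test (log2 fold change −0.12, standard error 0.085, edgeR adjusted p = 0.259).

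The lysyl hydroxylases differed among themselves in direction as well as in size. Within a library, the log2 ratio of PLOD2 to PLOD3 was 4.19, 4.12 and 4.17 in siControl and 6.50, 6.46 and 6.28 in siPVT1. The log2 ratio of PLOD2 to PLOD1 was 1.92, 1.87 and 1.85 against 2.87, 2.99 and 2.999. Both ratios reached the smallest p of the design (two-sided exact permutation test, p = 0.1), and after adjustment over the 12 pairs of paralogs compared the value was again 0.1. Per kilobase of exons, PLOD2 went from 53.1% ± 0.55 of the lysyl hydroxylase RNA in siControl to 72.3% ± 0.84 in siPVT1 (SD, n = 3 each). PLOD1 went from 39.4% to 25.5% and PLOD3 from 7.60% to 2.17%. With canonical lengths PLOD2 held 70.6% and 84.9%.

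**Figure D2:**
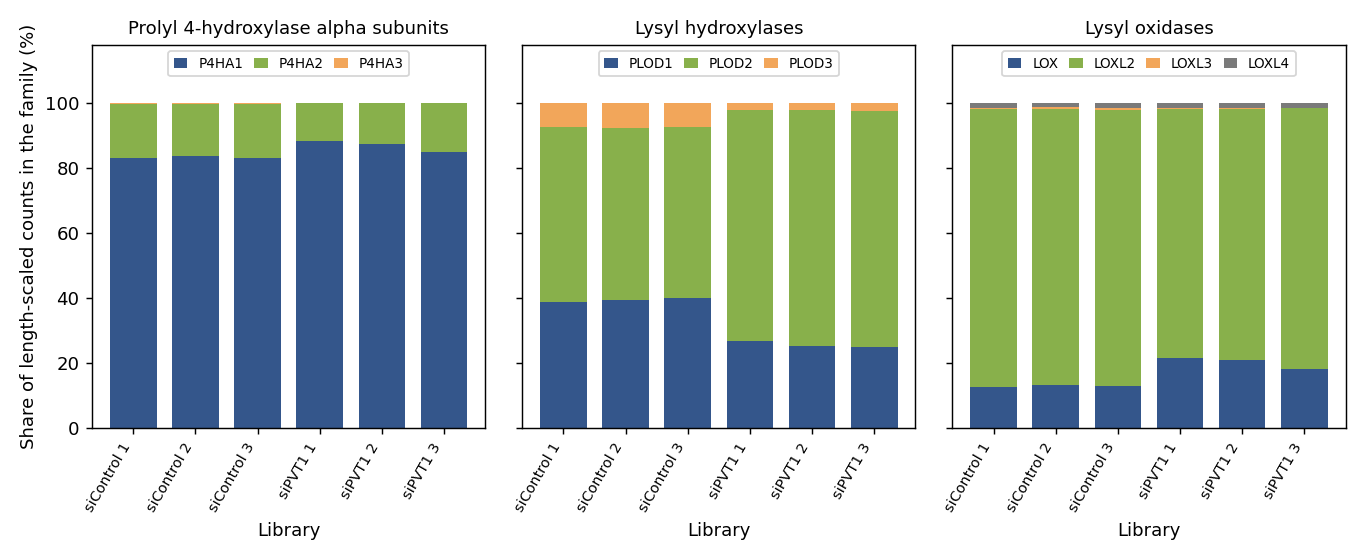
Share of each gene in the length-scaled counts of its family (y axis, %) in each of the 6 libraries (x axis), with normalized counts divided by the union of annotated exons. PLOD2 takes 52.6% to 53.7% of its family in siControl and 71.4% to 72.9% in siPVT1, and LOX takes 12.4% to 13.1% and 18.01% to 21.4%.

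LOX, the founding lysyl oxidase, had nearly identical levels in the siControl libraries and varied in siPVT1. Its normalized counts were 1681, 1696 and 1694 in siControl and 7838, 6752 and 4958 in siPVT1. The lowest siPVT1 library was still well above siControl, and the mean was 3.85 times as high, with a log2 fold change of 1.95 (standard error 0.15, edgeR adjusted p = 1.93e-05). The SD was 0.477% of the mean for siControl and 22.3% of it for siPVT1. SRFBP1, a neighbour with exonic overlap on the opposite strand of chromosome 5, moved the other way (log2 fold change −0.63, standard error 0.085, edgeR adjusted p = 0.000352).

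LOXL2, which cross-links collagen IV among other substrates, was the most abundant lysyl oxidase. It had 12379, 11821 and 12130 normalized counts in siControl and 30035, 26960 and 23683 in siPVT1. The log2 fold change was 1.15 (standard error 0.087, edgeR adjusted p = 1.76e-05), a 2.22-fold difference. In a test against a 2-fold change LOXL2 was no longer called (edgeR adjusted p = 0.131). ENTPD4, a gene with overlapping exons on the same strand, was higher by 0.56 on the log2 scale (standard error 0.074, edgeR adjusted p = 0.000304).

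LOXL4 was expressed at a low level and rose in siPVT1. It had 119, 112 and 121 normalized counts in siControl and 392, 323 and 242 in siPVT1. Its log2 fold change was 1.44 (standard error 0.18, edgeR adjusted p = 0.000205), a 2.71-fold difference.

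LOXL3 was lower in siPVT1, and this result is fragile. The normalized counts were 57.9, 46.3 and 82.0 in siControl and 38.9, 37.1 and 38.4 in siPVT1. With a log2 fold change of −0.71 (standard error 0.24), the adjusted p was 0.0341 in edgeR. It rose to 0.132 without siControl replicate 3, the highest library, with a log2 fold change of −0.46. It was 0.0615 without siControl replicate 1, 0.0544 without siPVT1 replicate 1 and 0.082 without siPVT1 replicate 2, all from edgeR. Exons of LOXL3 overlap those of HTRA2 and DOK1 on the opposite strand, and both were higher in siPVT1, by 0.66 and 0.80 on the log2 scale.

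LOXL1, a lysyl oxidase that the selection did not include, also fell. It had 486 normalized counts on average in siControl and 384 in siPVT1 (log2 fold change −0.34, standard error 0.096, edgeR adjusted p = 0.0155). Within the 4 selected lysyl oxidases, LOX gained on LOXL2, with a log2 ratio of −2.88, −2.80 and −2.84 in siControl and −1.94, −1.997 and −2.26 in siPVT1 (exact two-sided permutation test, p = 0.1, the smallest possible). Per kilobase of exons, the LOX share of the family went from 12.7% ± 0.31 to 20.1% ± 1.81 and that of LOXL2 from 85.3% ± 0.30 to 78.3% ± 1.94 (SD, n = 3 each). LOXL4 had a share of 1.37% ± 0.035 in siControl and 1.53% ± 0.15 in siPVT1, and the groups overlapped (two-sided exact permutation test, p = 0.3). The difference of 0.154 percentage points became 0.083 without siPVT1 replicate 1 and 0.233 without siPVT1 replicate 3.

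**Figure D3:**
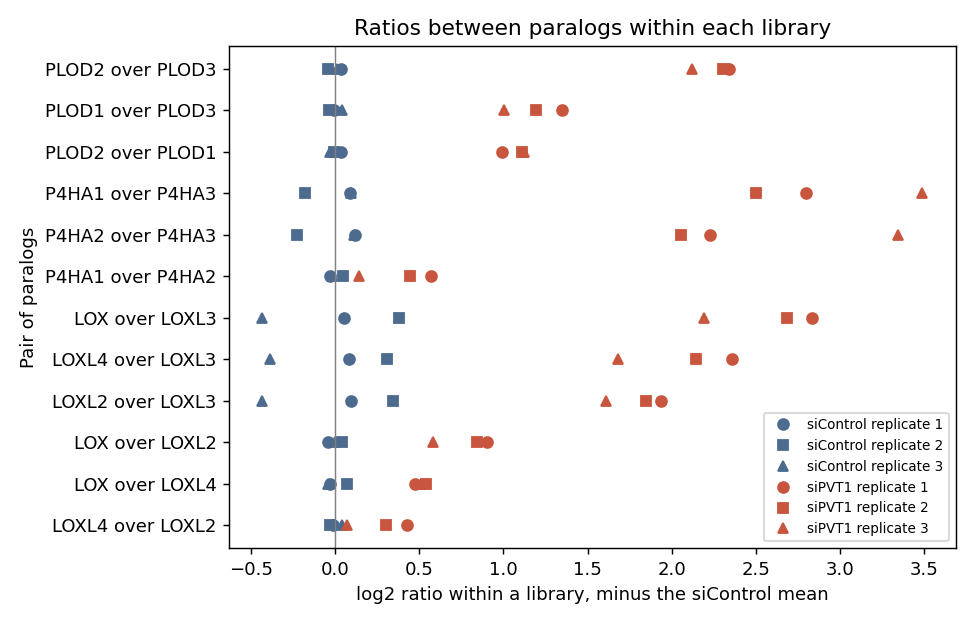
Log2 ratio of normalized counts plus 1 between paralogs within each library, minus the siControl mean of that pair (x axis), for 12 pairs (y axis); the gene with the larger fold change is named first, which sets the direction. The 3 siPVT1 libraries lie far to the right for PLOD2 over PLOD3, and siPVT1 replicate 3 lies close to siControl for LOXL4 over LOXL2 and for P4HA1 over P4HA2.

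**Figure D4:**
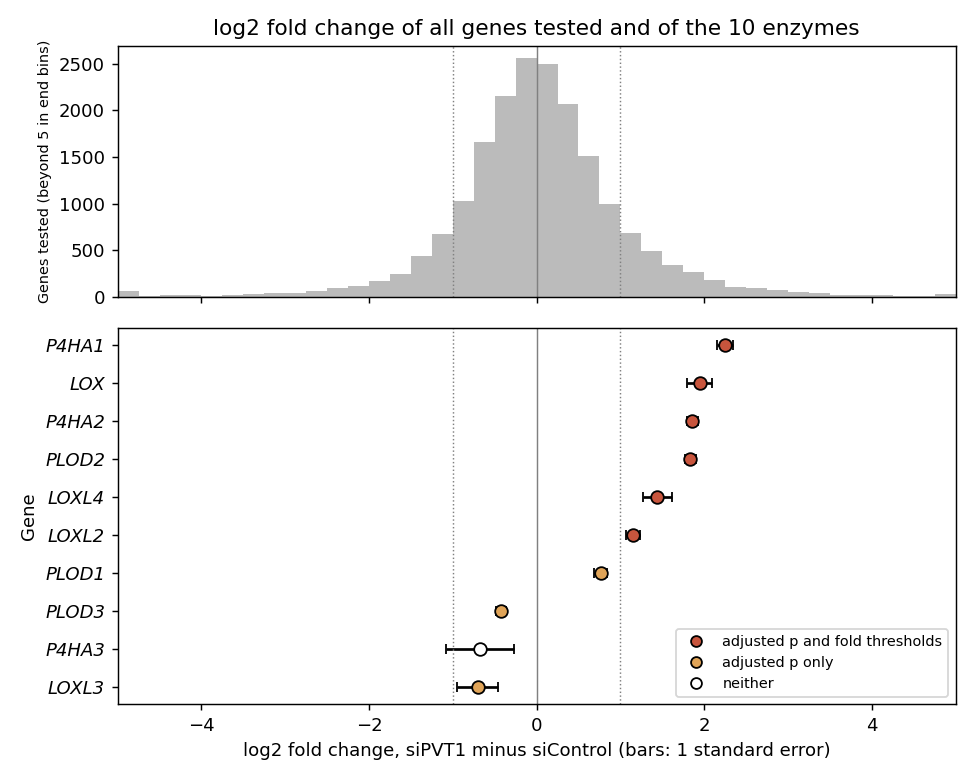
Log2 fold changes, siPVT1 minus siControl (x axis), of 19008 genes as a histogram (top, values beyond 5 in size in the end bins) and of the 10 enzymes with 1 standard error (bottom); dotted lines mark −1 and 1 and fill colour the thresholds passed. P4HA1 has the largest value at 2.25, and PLOD3, P4HA3 and LOXL3 lie between −0.42 and −0.71.

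The summed level of each family was higher in siPVT1. Per kilobase of exons, the sum of the alpha subunits was 917 ± 29.6 normalized counts in siControl and 4187 ± 447 in siPVT1, 4.57 times as high. That of the lysyl hydroxylases was 2442 ± 50.9 and 6392 ± 460, 2.62 times as high. The lysyl oxidases went from 2372 ± 48.2 to 5755 ± 810, 2.43 times as high (SD, n = 3 in each case). In each family the groups did not overlap (exact two-sided permutation test, p = 0.1, the smallest possible). In siControl, LOXL2 stood first by this scale at 2023 normalized counts per kilobase, followed by PLOD2 (1296), PLOD1 (961), P4HA1 (763), LOX (302), PLOD3 (186), P4HA2 (151), LOXL4 (32.6), LOXL3 (13.7) and P4HA3 (2.97), and neighbours in this order differed by more than their SD. The order depends on the length: with canonical transcripts PLOD2 came before LOXL2 (5017 against 3255) and LOX (333) came after PLOD3 (373) and P4HA2 (336), since 31 annotated transcripts of PLOD2 make its union of exons 14518 bases long. In siPVT1, PLOD2 (4622 ± 288) and LOXL2 (4493 ± 531) were within 1 SD of each other, ahead of P4HA1 (3639 ± 458.2). With canonical lengths they were far apart in siPVT1, at 17900 for PLOD2 and 7227 for LOXL2.

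The siPVT1 libraries spread more than those of siControl, and the spread was shared by most of the enzymes that rose. For 6 of the 7, all but P4HA2, siPVT1 replicate 1 had the highest and replicate 3 the lowest level (85.7%). This pattern was found in 50.8% of all genes called as higher and in 28.1% of all genes tested. It also held for 12 of 15 hypoxia markers. Leaving out siPVT1 replicate 1 or 3 ended none of the 6 calls of higher enzymes, and over all 6 fits without 1 library the log2 fold change of LOX ranged from 1.78 to 2.09 and that of P4HA1 from 2.15 to 2.33.

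The hypoxia markers were higher in siPVT1, the direction of most of the enzymes but not of PLOD3, LOXL3 and P4HA3. Of 15, all 15 were higher by the adjusted p (29.5% of all genes) and 14 by both thresholds (11.8% of all genes), with a median log2 fold change of 2.17. PFKFB4, a kinase that controls glycolysis, had 141 normalized counts on average in siControl and 2069 in siPVT1. The smallest log2 fold changes were 0.91 for the glycolytic enzyme ALDOC, which missed the fold threshold, and 1.40 for the angiogenic factor VEGFA. CA9, a carbonic anhydrase, had 1 raw count in each siControl library and 30, 37 and 19 in siPVT1. It reached the 5 normalized counts needed for testing in siPVT1 libraries only, which favours a call as higher. The part of the hypoxia markers in the enzyme values was not tested.

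Partners of the hydroxylases and the 3-hydroxylases were higher or did not pass the test. Of 7 genes, 5 were higher and 0 lower by the adjusted p (29.5% and 28.4% of all genes), and 2 were higher past both thresholds (11.8% of all genes). P3H3 and P3H1, prolyl 3-hydroxylases, had log2 fold changes of 1.64 (standard error 0.067) and 1.01 (standard error 0.058), and the value of P3H1 lies at the fold threshold. CRTAP and PPIB, which form a complex with P3H1, were higher by 0.76 and 0.62 on the log2 scale. P3H4, a partner of PLOD1 and P3H3 without catalytic activity, had a log2 fold change of −0.02 (edgeR adjusted p = 0.830), and that of P3H2 was 0.19 (edgeR adjusted p = 0.161).

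Collagen chaperones and glycosyltransferases were mixed. Of 10 genes, 4 were higher and 3 lower by the adjusted p, shares near those of all genes (29.5% and 28.4%), and the 2 that passed both thresholds were lower (9.64% of all genes). SERPINH1, the collagen chaperone HSP47, fell from 1586 to 673 normalized counts on average, a log2 fold change of −1.24 (standard error 0.068, edgeR adjusted p = 3.86e-06). COLGALT2, which adds galactose to hydroxylysine, fell from 309 to 99.7, a log2 fold change of −1.63 (standard error 0.10, edgeR adjusted p = 8.08e-06). Its abundant paralog COLGALT1 did not pass the test (7530 against 7932, edgeR adjusted p = 0.294). FKBP10 and FKBP7, peptidyl-prolyl isomerases of the endoplasmic reticulum, were higher by 0.80 and 0.97 on the log2 scale. FKBP14, an isomerase of the same kind, was lower with a log2 fold change of −0.32, and FKBP9 was at 0.083 (edgeR adjusted p = 0.272). The general chaperones and folding enzymes of the endoplasmic reticulum PDIA3 and CALR were higher by 0.68 and 0.41 on the log2 scale, and HSPA5 had a log2 fold change of 0.16 (edgeR adjusted p = 0.213).

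In export and processing of procollagen, 11 of 12 genes were tested, 5 were higher and 2 lower by the adjusted p (29.5% and 28.4% of all genes). Past both thresholds 2 were higher and 1 lower (11.8% and 9.64% of all genes). PCOLCE, an enhancer of procollagen C-proteinase, had a log2 fold change of 1.72 (standard error 0.12), and ADAMTS3, a procollagen N-proteinase, of 1.05 (standard error 0.18). MIA2, a cargo factor for procollagen export, fell with a log2 fold change of −1.01 (standard error 0.085, edgeR adjusted p = 2.99e-05). ADAMTS14, an N-proteinase of the same kind as ADAMTS3, had 20.7 and 13.3 normalized counts on average (edgeR adjusted p = 0.169). BMP1, the C-proteinase that also activates the LOX precursor, had 943 and 1053 normalized counts on average and did not pass the test (edgeR adjusted p = 0.0617); it was named for this role after its value was seen.

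Genes of copper and ascorbate supply showed no common direction. Of 8 tested, 4 were higher and 1 lower by the adjusted p (29.5% and 28.4% of all genes), and the 2 past both thresholds (11.8% of all genes) were SLC2A3 (log2 fold change 3.09) and SLC2A1 (2.17), glucose transporters that also carry dehydroascorbate and are known targets of hypoxia-inducible factors. SLC2A1 is also on the list of hypoxia markers and was counted there. ATP7A, the pump that loads lysyl oxidases with copper, had 398 and 416 normalized counts on average and did not pass the test (edgeR adjusted p = 0.718). ATP7B, a copper pump related to ATP7A, was higher by 0.83 on the log2 scale, and the copper chaperone ATOX1 had a log2 fold change of 0.19 (edgeR adjusted p = 0.0735). SLC31A1, the copper importer, was higher by 0.25 and MEMO1 had a log2 fold change of −0.54. SLC23A2, an ascorbate transporter, had a log2 fold change of −0.12 (edgeR adjusted p = 0.196).

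Among the substrates, 22 of 25 collagen chain genes were tested, 13 were higher and 1 lower by the adjusted p (29.5% and 28.4% of all genes), and 8 were higher and 1 lower past both thresholds (11.8% and 9.64% of all genes). COL13A1 had the largest log2 fold change of them at 2.84 (standard error 0.10), followed by COL4A4 at 2.40 (standard error 0.23). The minor fibrillar chain COL11A1, the 1 called as lower, had 21, 14 and 25 raw counts in siControl, and 1, 4 and 2 in siPVT1. It reached the 5 normalized counts needed for testing in siControl libraries only, which favours a call as lower. COL5A3 was near the limit of detection, with 9.499 and 7.25 normalized counts on average (edgeR adjusted p = 0.523). Of the relatives and matrix partners of lysyl oxidases, 6 of 9 genes were tested, 3 were higher and 2 lower by the adjusted p (29.5% and 28.4% of all genes), and the 3 were also past both thresholds (11.8% of all genes). EFEMP2 and FBLN5, fibulins that take part in elastic fibre assembly, were higher by 2.15 and 1.99 on the log2 scale. The matrix glycoprotein TNC, an abundant RNA, fell from 21660 to 17974 normalized counts on average (log2 fold change −0.27, standard error 0.056, edgeR adjusted p = 0.0035), and the other gene that was lower was LOXL1.

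**Figure D5:**
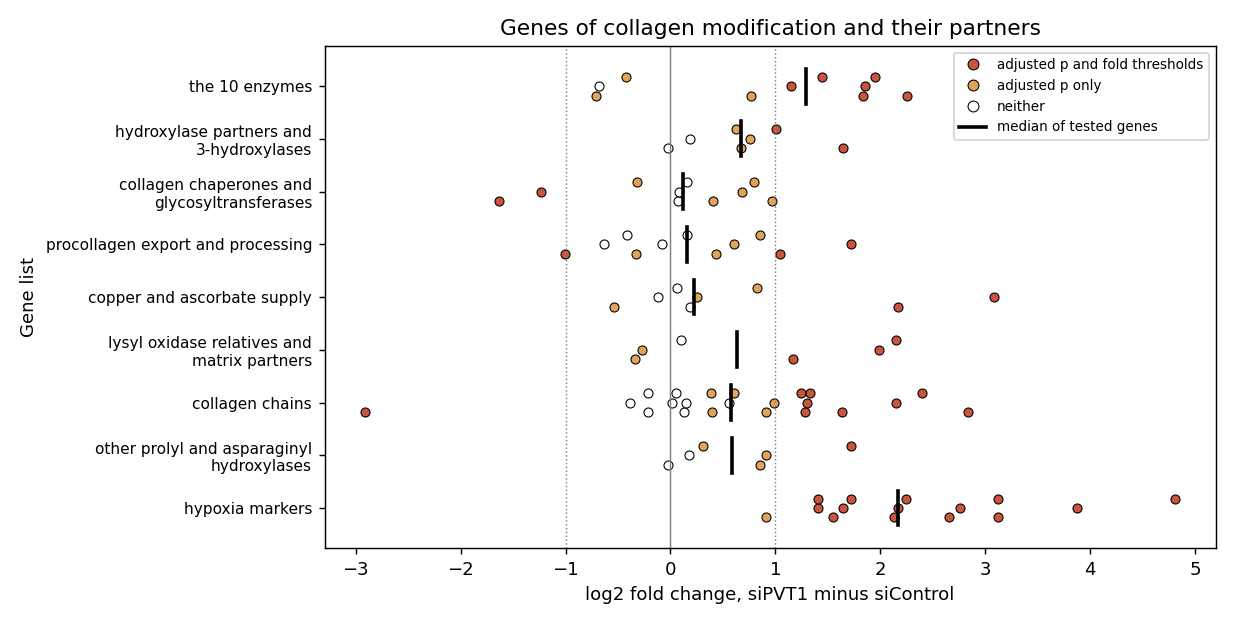
Log2 fold changes, siPVT1 minus siControl (x axis), of the tested genes of each list (y axis); red fill marks genes past both thresholds, orange the adjusted p alone and white neither, and black bars mark list medians. The rightmost hypoxia point is CA9, whose siControl level rests on 1 count a library. The median is 1.30 for the 10 enzymes, 0.68 for hydroxylase partners, 0.12 for chaperones and 2.17 for hypoxia markers.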

How the data were processed

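RNA from 3 siControl and 3 siPVT1 libraries of SK-OV3 cells was analysed. The authors sequenced single-end reads from mRNA libraries, aligned them to the GENCODE transcriptome of GRCh38 with STAR and counted them with Salmon (versions 2.7.3a and 0.14.1 in the submitters' processing notes), and the deposited table gives these estimated counts, not normalized, as whole numbers for each symbol. Salmon divides reads between similar transcripts by estimation. All 6 columns were matched to samples by their description label, and groups and replicate numbers came from the titles. Raw counts given in the text are as deposited.

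Genes needed 5 or more TMM-normalized counts in 3 or more libraries (19008 did), and these were tested with edgeR 4.0.16 (R 4.3.3), quasi-likelihood, with the siRNA as the only term and Benjamini-Hochberg adjustment over all of them. The study's thresholds were used, an adjusted p under 0.05 and a log2 fold change of 1 in size. Each standard error was taken as the size of the log2 fold change over the root of its F statistic. DESeq2 1.42.0 was an alternative. Both were first tested on simulated data with the same noise in both groups, which does not cover the wider spread of siPVT1. Coordinates, overlaps and exonic lengths came from GENCODE v44 on GRCh38, and start regions from RefSeq. Ratios and shares were compared with two-sided exact permutation tests, which cannot go below 0.1.

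The 10 genes and the gene lists were chosen with earlier results of these data known. The genes named were all 10, PVT1, genes overlapping them, the tested genes of the lists of hydroxylase partners, of chaperones and of copper and ascorbate supply, and, for each other list, the 2 tested genes with the largest and the 2 with the smallest log2 fold change. BMP1, CDH1, PDGFRA, PDGFRB, FAP and ACTA2 were named outside this rule, after their values were seen, as were DCN, THY1 and PTPRC, which were not tested. Depth (28383171 to 35059576 counts per library) limits P4HA3 and LOXL3. Scaling by total counts, DESeq2's size factors, other low-count filters, the replicate number as a block, a test against a 2-fold change and leaving out each library were tried.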

Additional observations from a re-analysis of the deposited data

How the results depend on the processing

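The log2 fold changes of the 10 enzymes kept their direction under all 13 alternatives, and the 6 calls of higher enzymes held under each, except that of LOXL2 in the test against a 2-fold change (adjusted p = 0.131). Lower enzymes by the adjusted p numbered 2, and 1 to 2 with a library left out. They numbered 0 in the test against a 2-fold change, which they could not pass with log2 fold changes under 1 in size. The log2 fold change of PVT1, −0.72, is also under 1 in size and could not pass that test, which called 1976 of all genes in place of 4081. Scaling by the total count moved the median over all genes, as log2 fold change, from 0.001 to −0.15, and the share of called genes that were higher from 55.1% to 43.8%. Under it P4HA1 was at 2.10, LOXL2 at 1.002, PLOD1 at 0.61 and PLOD3 at −0.57. It left 1 hydroxylase partner as higher past both thresholds in place of 2, as DESeq2 did, and 1 gene of procollagen export in place of 2. DESeq2 left 0 stromal markers as lower in place of 1. The cause of these changes was not tested, and they concern genes near the fold threshold or with few counts. Same-numbered libraries did not deviate together, with correlations of −0.14, −0.027 and 0.038 over 12030 genes. With the replicate block, 6 enzymes were again higher past both thresholds and 2 lower by the adjusted p, and 3924 of all genes were called. Shares computed with the longest or, chosen after seeing the data, the canonical transcript as the length kept their direction.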

Other observations

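Other enzymes that hydroxylate proline, asparagine or aspartate with oxygen and 2-oxoglutarate were described beside the collagen enzymes. Of 6, 4 were higher and 0 lower in siPVT1 by the adjusted p (29.5% and 28.4% of all genes), and EGLN3, a prolyl hydroxylase that marks hypoxia-inducible factors for degradation, was higher past both thresholds, as 11.8% of all genes were (80.1 against 265 normalized counts on average, log2 fold change 1.73, standard error 0.17, edgeR adjusted p = 6.98e-05). EGLN3 is also on the list of hypoxia markers and was counted there. ASPH, an aspartyl and asparaginyl hydroxylase of the endoplasmic reticulum, was abundant and had a log2 fold change of 0.91 (standard error 0.075). HIF1AN, which hydroxylates an asparagine of hypoxia-inducible factors, had a log2 fold change of −0.03 (edgeR adjusted p = 0.714), and that of EGLN2 was 0.17 (edgeR adjusted p = 0.0624).

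Among markers of other cell types, the endothelial genes PECAM1 and CDH5 had the largest differences. PECAM1 had 37.5 normalized counts on average in siControl and 298 in siPVT1 (log2 fold change 2.99, standard error 0.13), and CDH5 had 1993 and 9290 (log2 fold change 2.22, standard error 0.090). Among epithelial and ovarian carcinoma markers, MSLN and KRT19 had log2 fold changes of 2.94 and 2.30, and WT1 one of −1.01. MUC16 had 441 and 283 normalized counts on average and did not pass the test (edgeR adjusted p = 0.522). In siPVT1 its raw counts were 179, 581 and 19.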
